A study of Mus musculus with 18 samples.

Results

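The 9 genes described here encode transcription factors of the NFAT family, the phosphatase calcineurin that activates them, and regulators of calcineurin. They were chosen by name: Nfatc1, Nfatc2, Nfatc3 and Nfat5 (NFAT proteins), Ppp3ca and Ppp3cb (catalytic subunits of calcineurin), Ppp3r1 (its regulatory subunit), and Rcan1 and Cabin1 (proteins that bind and restrain calcineurin). They are 9 of the 37991 genes in the count files, and all 9 were among the 17240 genes tested.

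In T cells, engagement of the antigen receptor releases calcium, and calcium with calmodulin switches on calcineurin. Calcineurin removes phosphates from the NFATc proteins, which then enter the nucleus and, often together with AP-1, drive cytokine and receptor genes, while kinases of the DYRK, GSK3 and CK1 families put the phosphates back. NFAT5 shares the DNA-binding domain but is not controlled by calcineurin and is best known for the response to high salt. Rcan1 and the short form of Nfatc1 are textbook NFAT targets, so the pathway feeds back on itself through transcripts of the kind measured here.

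RNA-seq (total RNA depleted of ribosomal RNA) was carried out on splenic CD4 T cells, purified by an enrichment kit, of Tg4-H2u mice, which carry a transgenic T cell receptor for a peptide of myelin basic protein. Tolerized mice (T) had received escalating subcutaneous doses of the 4Y peptide, and control mice (N, naive) had received PBS on the same schedule. There were 6 groups of 3 libraries each: resting cells of mice given a last injection of PBS (N_0 and T_0), cells taken after a final injection of the peptide antigen into the mouse (N_Ag and T_Ag), and cells stimulated outside the mouse with PMA and the calcium ionophore A23187 (N_PI and T_PI). PMA and ionophore together act below the receptor. Resting and antigen groups came straight from the animal. The stimulus and the culture therefore cannot be told apart wherever a PI group is set against a resting or antigen group. The study calls the libraries biological replicates, from mice of both sexes and young adult age, but the labels do not give which animal or pool each library came from, so p-values measure the spread between these libraries. Library totals ran from 10758571 to 24119489 counts. Cd4, Cd3d, Cd3e and Cd3g were read in all 18 libraries, while neutrophil markers summed to 167 to 305 CPM (counts scaled to the library total) in T_0 and 163 to 283 CPM in T_Ag against at most 22.7 CPM in the naive groups. Reads from Y-linked genes also differed: they were at least 5599 in the 6 PI libraries and at most 15 in N_0 and N_Ag, so sex and PI stimulation cannot be told apart among naive libraries. Such reads were also at 6563 and 6320 in 2 T_0 libraries and at 5111 in 1 T_Ag library, and at 7 to 18 in the other 3, so the groups differ in sex in T_0 against N_0 and in the tolerized comparisons too. Only T_0 and T_Ag hold libraries of both kinds. Fits with sex as a term therefore rest on these groups and cannot separate sex from PI in naive cells.

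The DNA just upstream of a gene can be searched for words that match the NFAT core. It is printed here for Rcan1, because its level followed the stimuli, and for Nfat5 and Nfatc2, which moved in opposite directions. Each stretch is the 250 bases before an annotated start in NCBIM37 (mm9), read 5′ to 3′ on the gene's strand. Capitals mark the NFAT core GGAAA on either strand (TTTCC on the other), which overlaps the GGAA core of ETS factors, and the AP-1 site TGANTCA. Rcan1 has 2 groups of annotated starts on the minus strand of chromosome 16, and the internal one is known as the promoter that calcineurin and NFAT induce.
Rcan1, upstream start, chr16:92466392-92466641, minus strand: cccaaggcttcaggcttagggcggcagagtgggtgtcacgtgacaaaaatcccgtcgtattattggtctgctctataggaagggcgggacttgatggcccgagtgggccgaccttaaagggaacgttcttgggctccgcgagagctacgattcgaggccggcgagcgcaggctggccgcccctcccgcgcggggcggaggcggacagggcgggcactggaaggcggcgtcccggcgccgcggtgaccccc
Rcan1, internal start, chr16:92400323-92400572, minus strand: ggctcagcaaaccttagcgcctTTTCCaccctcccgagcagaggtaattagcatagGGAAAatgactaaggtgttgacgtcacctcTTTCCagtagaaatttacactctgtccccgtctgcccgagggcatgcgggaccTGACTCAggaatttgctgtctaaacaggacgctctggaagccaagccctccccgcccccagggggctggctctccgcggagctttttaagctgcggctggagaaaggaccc
Nfat5, chr8:109817120-109817369, plus strand: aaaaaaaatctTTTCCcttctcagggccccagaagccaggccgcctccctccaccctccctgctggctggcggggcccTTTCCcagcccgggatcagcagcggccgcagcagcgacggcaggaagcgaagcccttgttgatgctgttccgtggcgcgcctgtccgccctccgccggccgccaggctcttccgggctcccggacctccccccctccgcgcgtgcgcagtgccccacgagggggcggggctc
Nfatc2, chr2:168427158-168427407, minus strand: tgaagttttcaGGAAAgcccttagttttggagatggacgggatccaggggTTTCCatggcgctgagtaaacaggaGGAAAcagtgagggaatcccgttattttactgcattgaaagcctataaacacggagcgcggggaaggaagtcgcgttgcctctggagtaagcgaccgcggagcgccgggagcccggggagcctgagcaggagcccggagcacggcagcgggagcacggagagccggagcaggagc
The internal Rcan1 stretch held 3 NFAT cores and 1 AP-1 site, and the upstream one held 0 of either. Nfat5 held 2 cores and Nfatc2, which fell after stimulation, held 3. The stretch before Nfatc3, which fell after antigen, held 1 core and is not printed, and that of Nfatc1 is not given here. Across the 250 bases before 22372 protein-coding starts, 55.5% held at least 1 core, 21.4% at least 2 and 6.63% at least 3, and 5.88% held the AP-1 site. These were the most upstream start of each gene, so they are no matched set for the internal Rcan1 start. A match describes the letters and says nothing of binding, and the counts are per gene, so transcripts from the 2 groups of Rcan1 starts were not separated. In the same build 5 other members lie at chr8:108582740-108654437 (Nfatc3, plus strand), chr3:136333088-136600691 (Ppp3ca, plus), chr14:21318586-21365795 (Ppp3cb, minus), chr11:17059266-17100378 (Ppp3r1, plus) and chr10:75108855-75227102 (Cabin1, minus).

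After antigen in naive cells, Nfatc1, Nfat5, Rcan1 and Cabin1 rose while Nfatc2, Nfatc3 and the 3 calcineurin subunits fell. The 9 of 9 members past an adjusted p of 0.05 (edgeR quasi-likelihood test, Benjamini-Hochberg over all tested genes) compare with 65.5% of all genes tested. In tolerized cells given antigen, 4 members rose and 4 fell, against 59.8% of genes called. PI in naive cells raised 3 members (Nfatc1, Nfat5, Rcan1) and lowered 2 (Nfatc2, Ppp3cb), against 61.4%. In tolerized cells PI raised the same 3 and lowered Nfatc2, Ppp3cb and Ppp3ca, against 68.3%. Most genes moved with each stimulus, so these counts say little about the members, and 9 genes are few. Asking also for a fold of at least 2 and a mean normalized count above 50 in the higher group left 6 members in N_Ag (30.3% of all genes), 5 in T_Ag (23.4%), 3 in N_PI (20.3%) and 3 in T_PI (27.1%).

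**Figure D1:**
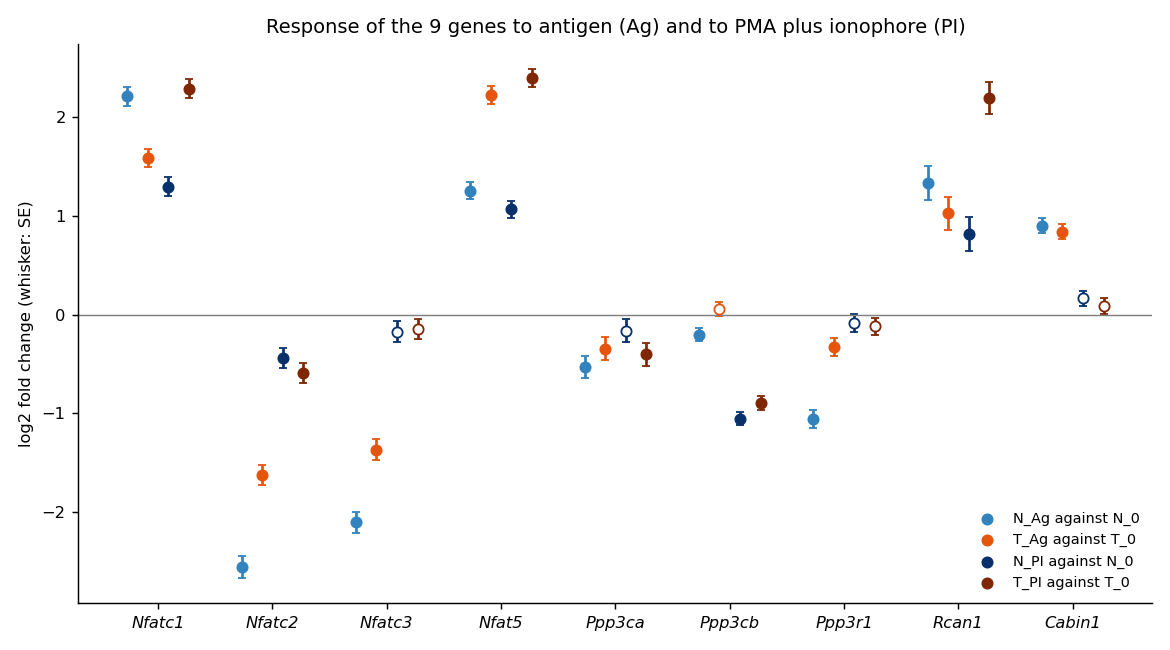
Log2 fold change of each of the 9 genes (x axis) against the resting group of the same mice, for antigen and PI in naive (blue) and tolerized (orange and brown) cells; whiskers are SE, and filled points passed an adjusted p of 0.05. Nfatc1 and Nfat5 lie above 0 in all 4 responses, and Nfatc2 and Nfatc3 lie lowest after antigen, at -2.56 and -2.11 in naive cells.

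Nfatc1, the NFAT gene known for autoinduction in activated lymphocytes, had normalized counts (counts scaled to a common library size) of 2865, 2727 and 2744 in N_0. It reached 12227, 12978 and 13526 in N_Ag and 5840, 7429 and 7250 in N_PI. No library of either stimulated group overlapped the resting ones, and antigen gave the higher level. The rise was 4.65-fold with antigen (log2 2.22, SE 0.10, adjusted p = 3.75e-16) and 2.46-fold with PI (log2 1.30, SE 0.09, adjusted p = 1.78e-11).

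In tolerized cells the order of the stimuli was the other way round. Nfatc1 stood at 3585, 3704 and 4432 in T_0, at 10752, 12996 and 11477 in T_Ag, and at 18668, 18601 and 20079.6 in T_PI. The 3 T_PI libraries were the highest of the 18. Antigen raised it 3.01-fold (log2 1.59, SE 0.09, adjusted p = 2.55e-13) and PI 4.89-fold (log2 2.29, SE 0.10, adjusted p = 3.80e-16). The antigen groups overlapped each other: T_Ag against N_Ag gave a log2 difference of -0.14 (95% interval -0.32 to 0.04, adjusted p = 0.254), and 0.044 with libraries scaled to their totals. After PI, tolerized cells had 2.79-fold more than naive cells (log2 1.48, SE 0.09, adjusted p = 2.61e-11).

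At rest, Nfatc1 was 1.41-fold higher in T_0 than in N_0, with no overlap (log2 0.49, SE 0.09, adjusted p = 5.75e-04). Of the 9 members, 2 passed in this comparison, beside 20.4% of all genes. The other was Ppp3cb, and 0 members also met the size limits, beside 3.25%. With erythroid and neutrophil marker scores in the fit the Nfatc1 difference was 0.04 (adjusted p = 0.998). All 8 neutrophil markers were higher in T_0 than in N_0, as given above by their summed level, so this fit cannot tell cell state from neutrophil content. In the same fit Ppp3cb was at -0.32 (adjusted p = 0.760), against -0.21 (adjusted p = 0.0260) without the scores.

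Nfatc2, an NFAT protein present in resting T cells before stimulation, went the other way. Its normalized counts were 2015, 2088 and 1947 in N_0 and 2004, 2144 and 2176 in T_0. After antigen they were 399, 335 and 296 in N_Ag and 674, 758 and 620 in T_Ag. Both antigen groups lay below every other library, and the naive one lay lowest. The falls were 5.88-fold in naive cells (log2 -2.56, SE 0.11, adjusted p = 8.47e-16) and 3.08-fold in tolerized cells (log2 -1.63, SE 0.10, adjusted p = 2.02e-12). T_Ag was 1.99-fold above N_Ag (adjusted p = 2.61e-07), with no overlap, and 5 of 6 CD4 T cell markers were also higher in T_Ag.

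PI lowered Nfatc2 far less than antigen did. It stood at 1610, 1263 and 1582 in N_PI and at 1323, 1320 and 1554 in T_PI. These groups overlapped each other and lay below both resting groups, with log2 changes of -0.44 (SE 0.10, adjusted p = 5.02e-04) and -0.59 (SE 0.10, adjusted p = 1.36e-05). The naive call was lost with sex as a term (-0.31, adjusted p = 0.0797), and the tolerized call with erythroid and neutrophil scores (-0.68, adjusted p = 0.0737). The direct difference between the stimuli was 2.12 on the log2 scale in naive cells and 1.03 in tolerized cells, PI above antigen.

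Nfatc3, another calcineurin-controlled family member, had the highest level per length of the members at rest. Its normalized counts of 5292, 5468 and 5456 in N_0 fell to 1419, 1202 and 1143 in N_Ag, which is 4.31-fold (log2 -2.11, SE 0.11, adjusted p = 1.96e-13). In T_0 it stood at 5238, 5271 and 6901, and in T_Ag at 1968, 2569 and 2207, which is 2.58-fold lower (log2 -1.37, SE 0.11, adjusted p = 2.63e-10). T_Ag lay above N_Ag without overlap (log2 0.84, SE 0.11, adjusted p = 3.36e-06), but this call was lost with erythroid and neutrophil scores in the fit (0.71, adjusted p = 0.207). PI groups spanned 4596 to 5544, and neither PI comparison with rest passed (log2 -0.17, 95% interval -0.37 to 0.03, in naive cells and -0.14, 95% interval -0.35 to 0.06, in tolerized cells). Nfatc3 shares 219 exon bases with Esrp2 on the opposite strand, and whether the counting used strand is not given in the sources used here.

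The falls after antigen came with lower CD4 T cell marker transcripts. All 6 markers (Cd3d, Cd3e, Cd3g, Cd4, Cd28, Trat1) were lower in N_Ag than in N_0, and their sum was 499 to 583 CPM against 1818 to 1910 CPM. In tolerized cells 5 of 6 were lower, with sums of 900 to 1040 CPM in T_Ag and 1664 to 1789 CPM in T_0. In these bulk libraries fewer cells of a type and less RNA per cell cannot be told apart, and the part of the markers in the falls of Nfatc2, Nfatc3 and Ppp3r1 was not tested. With PI, 4 of 6 CD4 T cell markers were lower and 2 higher than at rest in both naive and tolerized cells, with sums of 2301 to 2493 CPM in N_PI and 2017 to 2147 CPM in T_PI, and 4 of 6 were lower in T_PI than in N_PI. Macrophage markers were lower in N_PI than in N_0 (6 of 8) and in T_PI than in T_0 (4 of 8). Neutrophil markers were lower in T_PI than in T_0 (6 of 8, median log2 -4.77), and in N_PI 5 of 8 were lower and 2 higher. The part of these markers in the PI changes was not tested.

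**Figure D2:**
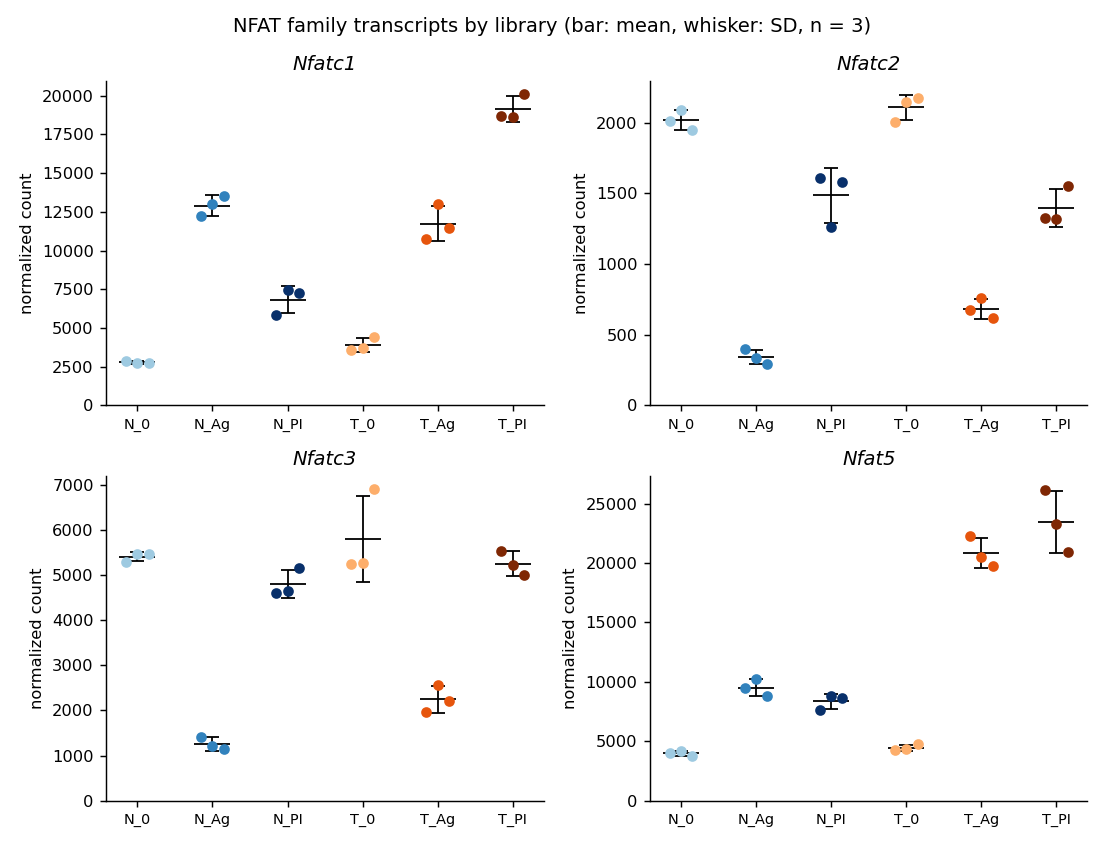
Normalized counts (y axis, from 0) of the 4 NFAT genes in each of the 18 libraries (points) by group (x axis), with the group mean (bar) and SD (whisker), n = 3. Nfatc1 is highest in T_PI at a mean of 19116, Nfatc2 and Nfatc3 are lowest in N_Ag at 343 and 1255, and the stimulated tolerized groups of Nfat5 have means of 20839 (T_Ag) and 23462 (T_PI).

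Nfat5, the salt-responsive relative that calcineurin does not control, rose with each stimulus and rose more in tolerized cells. Resting libraries held 4044, 4170 and 3738 in N_0 and 4257, 4336 and 4763 in T_0 (log2 difference 0.16, 95% interval -0.01 to 0.33, adjusted p = 0.206). Antigen brought it to 9467, 10269.9 and 8815 in N_Ag and to 22243, 20500.8 and 19772.5 in T_Ag. PI brought it to 7640, 8828 and 8613 in N_PI and to 26187, 23255 and 20943 in T_PI. Every stimulated tolerized library held at least 19772.5, and no stimulated naive library held more than 10269.9.

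The Nfat5 rises were 2.39-fold in N_Ag (log2 1.26, SE 0.09, adjusted p = 3.29e-12) and 2.099-fold in N_PI (log2 1.07, SE 0.09, adjusted p = 1.44e-10). In tolerized cells they were 4.68-fold with antigen (log2 2.23, SE 0.09, adjusted p = 1.59e-16) and 5.27-fold with PI (log2 2.40, SE 0.09, adjusted p = 4.57e-17). Of the members, 4 were higher in T_Ag than in N_Ag (Nfat5, Nfatc2, Nfatc3 and Ppp3r1) and 0 lower, beside 39.4% of all genes called in either direction. In T_PI against N_PI, 3 were higher (Nfat5, Nfatc1 and Rcan1) and 1 lower (Ppp3ca), beside 37.9%. The size limits left 1 member in the first comparison (5.66% of all genes) and 3 in the second (5.60%). Nfat5 was 2.19-fold higher in the first comparison (adjusted p = 5.67e-10) and 2.81-fold higher in the second (adjusted p = 8.92e-12).

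Of the member genes for catalytic subunits of calcineurin, Ppp3cb fell with PI and Ppp3ca changed by less. Ppp3cb, the more abundant of these per length, had normalized counts of 2368, 2476 and 2641 in N_0 and 2196, 2131 and 2126 in T_0. PI brought it to 1127, 1182 and 1296 in N_PI and to 1136, 1235 and 1103 in T_PI, so that all 6 PI libraries lay below all others. PI lowered it 2.08-fold in naive cells (log2 -1.05, SE 0.07, adjusted p = 2.70e-12) and 1.86-fold in tolerized cells (log2 -0.89, SE 0.07, adjusted p = 2.88e-11).

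With antigen, Ppp3cb spanned 2081 to 2259 in N_Ag and 2195 to 2314 in T_Ag. The naive change was -0.20 on the log2 scale (SE 0.07, adjusted p = 0.0106), and it missed the threshold without N_Ag replicate 2 (adjusted p = 0.0507) and with DESeq2 size factors (adjusted p = 0.0578). In tolerized cells the change was 0.06 (95% interval -0.08 to 0.19, adjusted p = 0.490), and -0.28 with libraries scaled to their totals. At rest T_0 was lower than N_0 by a log2 of -0.21 (SE 0.07, adjusted p = 0.0260), a call that was lost without N_0 replicate 3 (adjusted p = 0.107), without T_0 replicate 2 (adjusted p = 0.0589) and in 4 of 9 other fits.

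Ppp3ca, the other catalytic subunit, had the smallest range of group means of the 9 genes, 0.59 on the log2 scale. It fell with antigen in naive cells from 850 to 979 in N_0 to 614 to 674 in N_Ag (log2 -0.53, SE 0.11, adjusted p = 3.02e-04), with no overlap. In tolerized cells the changes were -0.35 with antigen (adjusted p = 0.0121) and -0.40 with PI (adjusted p = 3.34e-03). T_0 replicate 3 held 623 against 890 and 910 in the other T_0 libraries, and the groups overlapped in both tolerized comparisons. T_0 replicate 3 also had 7 Y-linked reads against 6563 and 6320 in those libraries, so it weighs on the sex term for Ppp3ca. The antigen call was lost without T_0 replicate 2 or T_Ag replicate 2 (adjusted p = 0.0547 and 0.0532), with sex as a term (0.0614) and with the compared groups alone (0.0563), and the PI call with erythroid and neutrophil scores (0.260) and with the compared groups alone (0.116). T_PI was lower than N_PI (log2 -0.43, SE 0.11, adjusted p = 4.27e-03), and this call was lost without T_PI replicate 1 (adjusted p = 0.0577) and with erythroid and neutrophil scores (0.329).

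Ppp3r1, the calcium-binding regulatory subunit, fell 2.08-fold with antigen in naive cells. It stood at 929, 1018 and 1011 in N_0 and at 465, 452 and 506 in N_Ag (log2 -1.05, SE 0.09, adjusted p = 2.49e-10). In tolerized cells it went from 838, 870 and 931 to 610, 712 and 784 (log2 -0.32, SE 0.09, adjusted p = 2.98e-03). Neither pair of groups overlapped, and T_Ag was 1.48-fold above N_Ag (log2 0.56, SE 0.09, adjusted p = 3.70e-05), a call lost with erythroid and neutrophil scores (0.52, adjusted p = 0.295). PI changed it by -0.09 in naive cells (95% interval -0.26 to 0.09) and -0.12 in tolerized cells (95% interval -0.29 to 0.06), and neither passed. The annotation shares 462 of its exon bases with Wdr92 on the same strand, so reads in those bases cannot be given to 1 gene.

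**Figure D3:**
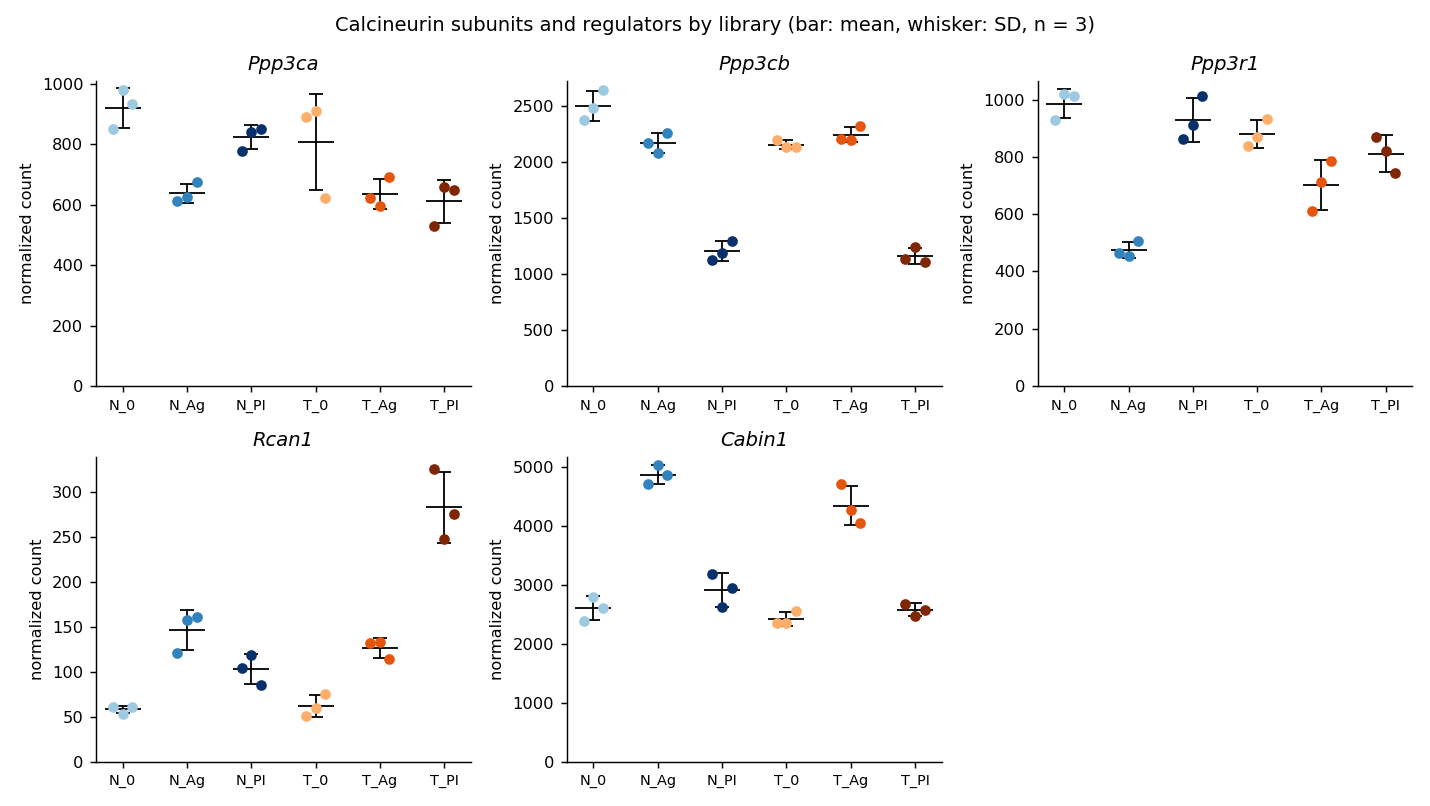
Normalized counts (y axis, from 0) of the calcineurin subunits and regulators in each of the 18 libraries (points) by group (x axis), with the group mean (bar) and SD (whisker), n = 3. Ppp3cb is lowest in the PI groups (means 1202 and 1158), Ppp3r1 in N_Ag (474), Rcan1 is highest in T_PI (283) and Cabin1 in the antigen groups (4875 and 4349).

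Rcan1, the feedback inhibitor of calcineurin, had the lowest level per length of the members in N_0 (1.70 RPKM), with 51 to 79 reads in the resting libraries. Its normalized counts were 60.4, 53.2 and 60.5 in N_0 and 51.3, 59.2 and 75.8 in T_0. Antigen raised it to 121, 157 and 161 in N_Ag and to 132, 134 and 114 in T_Ag, and these groups overlapped. PI raised it to 104, 119 and 85.7 in N_PI and to 326, 248 and 276 in T_PI, which lay above all other libraries.

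Each Rcan1 rise passed: 2.52-fold in N_Ag (log2 1.33, SE 0.17, adjusted p = 2.17e-07), 2.04-fold in T_Ag (log2 1.03, SE 0.17, adjusted p = 1.08e-05), 1.76-fold in N_PI (log2 0.82, SE 0.17, adjusted p = 2.68e-04) and 4.57-fold in T_PI (log2 2.19, SE 0.16, adjusted p = 1.68e-11). The N_PI call was lost when libraries were scaled to their totals (0.24, adjusted p = 0.204). T_PI was 2.77-fold above N_PI (adjusted p = 7.69e-08). The resting groups differed by 0.09 on the log2 scale (95% interval -0.26 to 0.45).

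Cabin1, a nuclear protein that binds calcineurin and represses its targets, rose with antigen, and its PI changes were smaller and did not pass. It went from 2395, 2804 and 2616 in N_0 to 4719, 5041 and 4867 in N_Ag (log2 0.90, SE 0.08, adjusted p = 2.00e-10). In tolerized cells it went from 2349, 2362 and 2565 to 4716, 4274 and 4055 (log2 0.84, SE 0.08, adjusted p = 1.01e-09). The 6 antigen libraries lay above all others. PI libraries spanned 2473 to 3190, with log2 changes of 0.16 (95% interval 0.01 to 0.32, adjusted p = 0.0716) in naive cells and 0.09 (95% interval -0.06 to 0.24, adjusted p = 0.314) in tolerized cells. The naive value passed in 6 of 9 other fits, DESeq2 among them, as higher in 5 (up to 0.30, with sex as a term) and lower in 1, and it passed without N_PI replicate 2 (0.24, adjusted p = 0.0154). With libraries scaled to their totals the naive and tolerized values turned to -0.41 and -0.71, so the direction with PI depends on the scaling.

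Set directly against each other, PI and antigen differed for most members. In naive cells 4 members were higher with PI (Nfatc2, Nfatc3, Ppp3r1 and Ppp3ca) and 4 lower (Nfatc1, Ppp3cb, Cabin1 and Rcan1), beside 64.4% of all genes called. In tolerized cells 5 were higher with PI (Nfatc1, Nfatc2, Nfatc3, Rcan1 and Ppp3r1) and 2 lower (Ppp3cb and Cabin1), beside 63.8%. The size limits left 2 members in naive cells (27.5% of all genes) and 3 in tolerized cells (25.5%). Nfatc1 was 1.89-fold lower with PI than with antigen in naive cells (adjusted p = 3.86e-09) and 1.63-fold higher in tolerized cells (adjusted p = 3.27e-07). Rcan1 was 1.43-fold lower in naive cells (adjusted p = 7.42e-03), a call lost without N_PI replicate 3 (adjusted p = 0.0595), with sex as a term (0.512) and with erythroid and neutrophil scores (0.0969), and 2.24-fold higher in tolerized cells (adjusted p = 3.78e-07), a call lost with erythroid and neutrophil scores (log2 1.05, adjusted p = 0.0540). The Ppp3ca difference in naive cells (log2 0.37) was 0.011 with sex as a term (adjusted p = 0.957), and its call was also lost with erythroid and neutrophil scores (0.33, adjusted p = 0.270) and with library totals (0.19, adjusted p = 0.239). The sex term is set by the T_0 and T_Ag libraries alone, so it cannot decide these naive comparisons. The Ppp3r1 difference in tolerized cells (log2 0.21, adjusted p = 0.0473) was lost in 4 of 6 fits that left out a library (without T_Ag replicate 1 or 2 or T_PI replicate 1 or 2, adjusted p = 0.0733 to 0.223), with erythroid and neutrophil scores (adjusted p = 0.457) and with sex as a term (adjusted p = 0.176), and it turned to -0.26 with library totals.

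The difference of the response between tolerized and naive cells was tested directly as an interaction. For antigen, 4 members had a higher value in tolerized cells and 1 a lower one, beside 21.7% of all genes called, and 0 met the size limits, beside 5.27%. Nfat5 rose more (difference of log2 changes 0.97, SE 0.12, adjusted p = 3.38e-06) and Nfatc1 rose less (-0.63, SE 0.13, adjusted p = 1.03e-03). In the reported fit Nfatc1 started higher in T_0 than in N_0 (log2 0.49), and T_Ag against N_Ag did not pass (-0.14, adjusted p = 0.254). With erythroid and neutrophil scores the resting difference was 0.04. The other 3 fell less: Nfatc2 (0.93, SE 0.15, adjusted p = 6.91e-05), Nfatc3 (0.74, SE 0.15, adjusted p = 1.08e-03) and Ppp3r1 (0.73, SE 0.13, adjusted p = 1.87e-04). Of the 6 CD4 T cell markers, 5 also fell less in tolerized cells, with a median difference of 0.89 on the same scale, and their part in the 3 smaller falls was not tested. For Rcan1 (-0.31, 95% interval -0.78 to 0.17) and Cabin1 (-0.06, 95% interval -0.28 to 0.15, and 0.011 with libraries scaled to their totals) the test did not pass.

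For PI, 3 members rose more in tolerized cells and 0 less, beside 20.2% of all genes called, and 2 (Nfat5 and Rcan1) met the size limits, beside 3.21%. These were Rcan1 (difference of log2 changes 1.38, SE 0.24, adjusted p = 1.73e-04), Nfat5 (1.33, SE 0.12, adjusted p = 5.33e-08) and Nfatc1 (0.99, SE 0.13, adjusted p = 6.63e-06). Of the CD4 T cell markers 0 of 6 passed in this interaction. Nfatc1 therefore differed in opposite directions for the 2 stimuli, less in tolerized cells with antigen and more with PI, and both tests share the resting groups. All 8 of these differences passed in each of the 9 other fits and in each of the 12 fits that left out a library.

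Nfatc1 rose and Nfatc2 fell with each stimulus, while Nfatc3 fell with antigen and did not pass with PI. The make-up of the NFATc transcripts therefore shifted. Per length (RPKM, reads scaled to exon length and library size), Nfatc3 made up 60.7% ± 0.881 (SD, n = 3) of the 3 genes' sum in N_0, Nfatc1 26.0% ± 0.832 and Nfatc2 13.3% ± 0.407. In N_Ag the Nfatc1 share was 88.1% ± 1.80, and Nfatc3 was down to 10.3% ± 1.51. The Nfatc1 share was 50.03% ± 3.33 in N_PI, 31.7% ± 0.505 in T_0, 78.7% ± 0.457 in T_Ag and 72.4% ± 1.41 in T_PI, and no 2 of the 6 groups overlapped. The sum of the 3 genes was 105 ± 0.647 RPKM in N_0, 144 ± 4.41 in N_Ag and 134 ± 10.4 in N_PI. In tolerized cells it was 122 ± 16.2 in T_0, 147 ± 15.2 in T_Ag and 260 ± 6.92 in T_PI. The T_0 libraries (111 to 140) overlapped those of T_Ag (134 to 164). These shares depend on the gene length used: with the longest transcript in place of all exons, Nfatc1 in N_0 had 41.5 RPKM in place of 27.4.

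**Figure D4:**
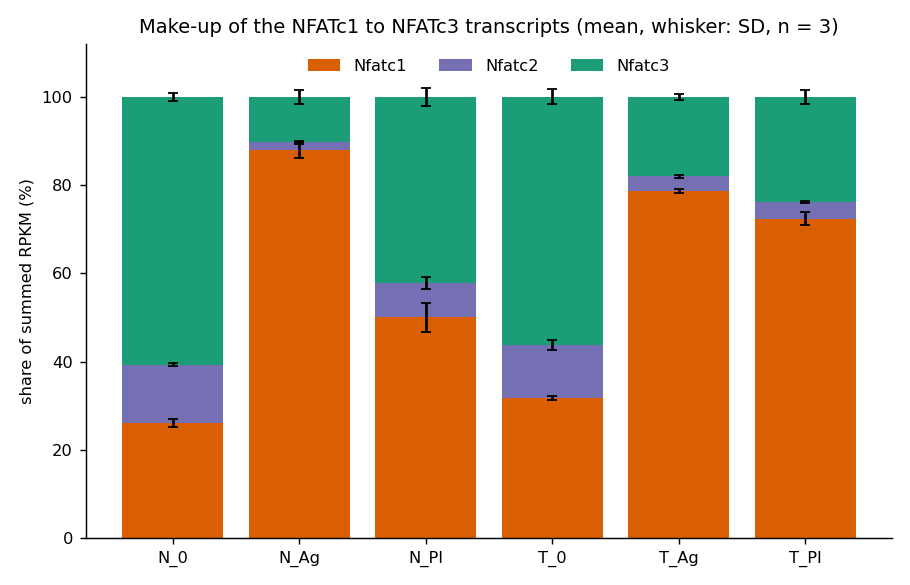
Share of the summed RPKM (y axis, percent) of Nfatc1, Nfatc2 and Nfatc3 in each group (x axis), as stacked group means with the SD of each share as whiskers at the top of its segment, n = 3. Nfatc3 is the largest segment in N_0 and T_0 (60.7% and 56.2%), and Nfatc1 in the other 4 groups, from 50.03% in N_PI to 88.1% in N_Ag.

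A like comparison set the inhibitor against its target. Rcan1 per length was 3.99% ± 0.398 of the sum of Ppp3ca and Ppp3cb in N_0 and 4.97% ± 1.35 in T_0. It was 12.3% ± 1.79 in N_Ag, 11.8% ± 2.28 in N_PI and 10.4% ± 1.30 in T_Ag, which overlapped one another. T_PI stood apart at 37.6% ± 7.60, with its lowest library at 30.5%, where Rcan1 was up and Ppp3cb was down. Of the summed level of Ppp3ca and Ppp3cb alone, Ppp3cb made up 71.3% ± 1.26 in N_0 and 57.2% ± 0.990 in N_PI. Both ratios leave out Ppp3cc, a further catalytic subunit that is no member, which had 18.7 RPKM in N_0 against 30.4 for Ppp3cb and 12.2 for Ppp3ca, and 14.8 in N_PI against 14.6 and 10.9. These ratios also depend on the gene length used. With the longest transcript, Ppp3cb in T_PI had 22.1 RPKM in place of 14.1, and Rcan1 had 8.92 in place of 8.27.

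Genes around the members were read from lists of the pathway. Of 5 further family members, Nfatc4, Ppp3r2 and Rcan2 were too low to test, and Ppp3cc (a further catalytic subunit) and Rcan3 (a relative of Rcan1) fell in all 4 responses. Ppp3cc went from a mean normalized count of 750 in N_0 to 295 in N_Ag (log2 -1.35, adjusted p = 4.65e-11) and from 1015 in T_0 to 445 in T_Ag (log2 -1.19, adjusted p = 3.04e-10). Rcan3 fell where Rcan1 rose, with log2 changes of -2.02 in N_Ag and -1.21 in T_Ag. Of 3 calmodulin genes, which encode the same protein, Calm3 fell in all 4 responses (log2 -1.38 to -0.67), and Calm2 rose with PI (1.10 in naive and 0.98 in tolerized cells) and did not pass with antigen.

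Among kinases that return NFAT to the cytoplasm, Csnk1a1, Csnk1d, Csnk1e, Dyrk1a and Dyrk2 rose in both PI responses. Of 8 kinase genes, 5 rose and 0 fell in N_PI, 6 rose and 1 fell in T_PI, 3 rose and 3 fell in N_Ag, and 4 rose and 2 fell in T_Ag. The shares of all genes called in these responses were 61.4%, 68.3%, 65.5% and 59.8%, so the number of kinases called is close to that of genes at large. The median log2 change of the list was 0.83 in N_PI and 1.10 in T_PI, where the medians of all genes were -0.06 and -0.10. Scaling to library totals moves the medians of all genes to -0.65 and -0.92, and values of these lists were read under TMM scaling alone. Csnk1e rose to a mean of 977 from 364 in naive cells (log2 1.42, adjusted p = 2.04e-12) and to 904 from 246 in tolerized cells (log2 1.88, adjusted p = 9.60e-15). Dyrk1a rose by 0.91 and 1.65 with PI and did not pass with antigen. Dyrk2 went up with PI (1.23 and 1.25) and down with antigen (-1.13 in naive and -0.47 in tolerized cells). Gsk3b fell with antigen, from 2908 to 718 in naive cells (log2 -2.02, adjusted p = 4.49e-16) and from 2655 to 1252 in tolerized cells (log2 -1.08, adjusted p = 4.84e-11).

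Of 7 proteins that bind calcineurin or NFAT, 3 rose and 3 fell with antigen in both naive and tolerized cells, beside 65.5% and 59.8% of all genes called. Fkbp1a, the target through which FK506 blocks calcineurin, rose in all 4 responses (log2 0.89 to 1.80). Akap5, which anchors calcineurin, rose with antigen (log2 2.098 in naive and 1.90 in tolerized cells) and fell with PI (-1.35 and -1.13), from a mean of 27.0 in N_0. Chp1, a calcineurin-like protein that inhibits the phosphatase, fell with antigen by 2.02 and 1.45 on the log2 scale, and with PI its changes of -0.06 and 0.06 did not pass. Homer3, which competes with calcineurin for NFAT, fell with antigen (-2.40 and -1.55) and in T_PI (-1.40).

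**Figure D5:**
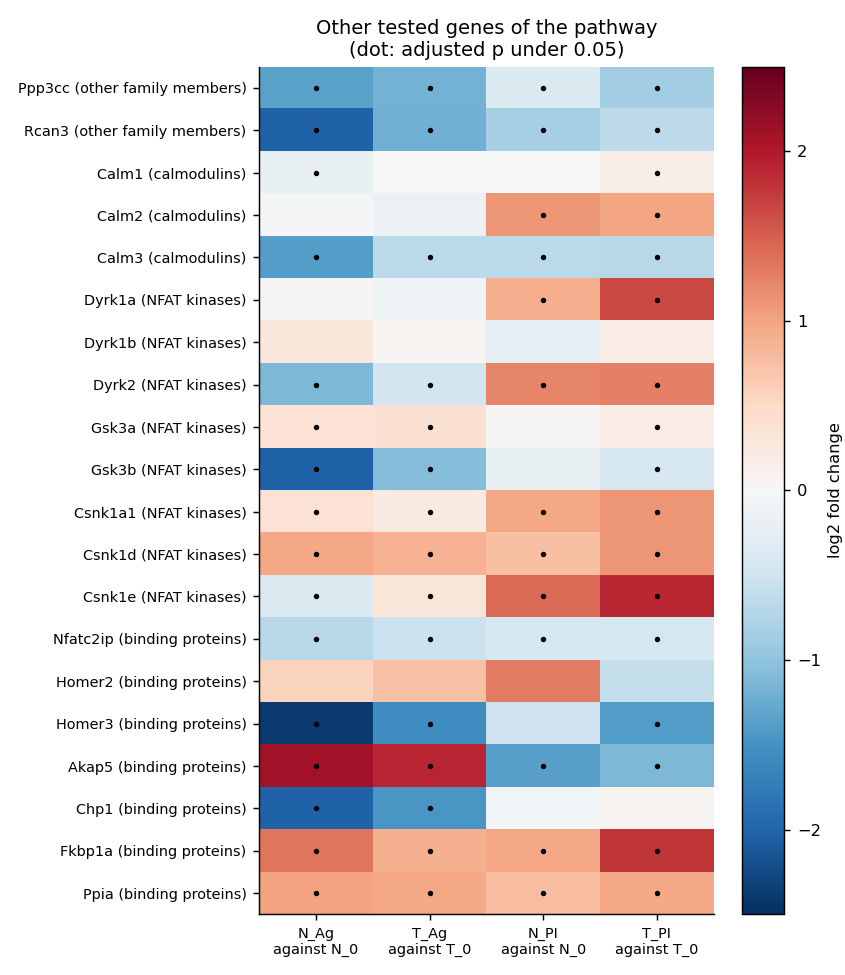
Log2 fold change (colour, blue lower and red higher, scale from -2.5 to 2.5) of the other tested genes of the pathway (rows, with their list) in the 4 responses (columns); a dot marks an adjusted p under 0.05. The kinase rows Dyrk1a, Dyrk2, Csnk1a1, Csnk1d and Csnk1e are red in both PI columns, and Homer3 is the darkest blue cell, at -2.40 with antigen in naive cells.

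Genes known to respond to NFAT in T cells were mostly higher in each response. This list was chosen with earlier results of these data known. The study itself names several of them, such as Il2, Tnf, Ctla4 and Il10, as inducible in these cells. The counts and medians below are therefore descriptive and no independent test. Of 18, 17 rose in N_Ag and 0 fell, 16 rose and 1 fell in T_Ag, and all 18 rose in both PI responses. Of all genes, 65.5%, 59.8%, 61.4% and 68.3% were called in either direction in N_Ag, T_Ag, N_PI and T_PI. The median log2 change was 4.12 in N_Ag, 3.34 in T_Ag, 6.53 in N_PI and 6.33 in T_PI, with medians of all genes between -0.10 and 0.00. Il2, the T cell growth factor, had a mean normalized count of 8.38 in N_0, 4452 in N_Ag and 4254 in N_PI, against 4.54 in T_0, 717 in T_Ag and 8325 in T_PI. Il21, a helper cytokine, ended higher in tolerized cells, with 3682 in T_Ag against 459 in N_Ag and 22184 in T_PI against 1355 in N_PI. Egr2, a partner and target of NFAT linked to anergy, had 3810 in N_Ag, 4534 in T_Ag, 16670 in N_PI and 38187 in T_PI. Il3, listed at 0 in all resting libraries, reached a mean of 342 in N_Ag and 3.31 in T_Ag. In the interaction for antigen, 6 of the 18 had a lower value in tolerized cells and 0 a higher one, beside 21.7% of all genes called. One of these was Cd40lg, which rose from a mean of 969 to 7855 in naive cells and fell from 406 to 277 in tolerized cells. For PI, 5 had a higher value and 0 a lower one, beside 20.2% of all genes.

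The 2 members with the widest range of group means were Nfatc1 (2.78 on the log2 scale) and Nfatc2 (2.62). Over the 18 libraries and among 11554 genes, those most like Nfatc1 were Baz1a (Pearson r = 0.986 of log2 CPM), Ankrd28 (0.981) and Pou2af1 (0.980). The genes most like Nfatc2 were Mta3 (0.991), Helb (0.991) and Agap2 (0.989). Among the members themselves, Nfatc2 and Nfatc3 had r = 0.976 and Nfatc1 and Rcan1 had r = 0.944. The libraries fall into 6 groups, so each of these values mostly describes likeness of the group means.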

How the data were processed

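Bulk RNA-seq libraries of CD4 T cells (6 groups, 3 libraries each) were analysed from the deposited read counts per gene, which the authors made by aligning paired-end reads to mm9 with TopHat2 2.1.1 and counting with HTSeq 0.9.1 on Ensembl gene models, per the submitters' processing notes. These notes also name DESeq2 1.18 and edgeR 3.24. The counts are whole numbers without normalization. Rows were matched to symbols, positions and exon lengths with the GENCODE annotation of NCBIM37 (mm9).

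Testing was limited to the 17240 of 37991 genes whose mean normalized count reached 3 in some group. Library sizes were scaled with TMM in edgeR 4.0.16 (R 4.3.3), and contrasts of the 6 group means were tested with the quasi-likelihood test over all 18 libraries, two-sided, with Benjamini-Hochberg adjustment over all tested genes and a threshold of 0.05. Normalized counts are counts divided by the TMM-scaled library size relative to the mean. Intervals of log2 changes are the estimate with 1.96 SE on either side. RPKM used the TMM-scaled sizes and the union of exons. Alternatives were DESeq2 1.42.0, its size factors, no filter on low counts, a fold of at least 2 with a normalized count above 50, a replicate block, marker scores or sex as terms, the compared groups alone, left-out libraries, and, added after the data had been seen, library totals. On simulated counts for N_Ag against N_0 (16529 genes), 100 of 100 genes changed by 2 on the log2 scale and 79 of 100 changed by 1 were recovered, with 6 false calls. For the antigen interaction, 98 and 34 of 100 were recovered, with 8 false calls. In the simulation these genes changed in N_Ag alone, all other genes were equal across groups, and every gene had the same fixed dispersion. In the data 65.5% of genes were called in N_Ag against N_0. The simulated recovery and false calls therefore do not measure those of the real libraries. Marker sums are CPM from library totals. The strand setting of the counting is not given in the sources used here.

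All 9 members are named. From the pathway lists, at most 4 genes per list were taken for a report of values, those past the test with a fold of at least 2 in a response, by size. Cd40lg is given outside this limit, as a gene that rose in naive and fell in tolerized cells after antigen. Csnk1a1 and Csnk1d are also outside it and are named for their direction with PI alone. Nfatc4, Ppp3r2 and Rcan2 are named only as too low to test. Members and lists were chosen with earlier results of these data known. No 2 libraries of a group agreed within sampling noise (lowest chi-square per degree of freedom 3.04).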

Additional observations from a re-analysis of the deposited data

Results flagged for a closer look

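The response to a stimulus differed between tolerized and naive cells, by a test of the difference itself, for 8 of the 18 values of the members. For antigen, the difference of log2 changes (tolerized minus naive) was -0.63 for Nfatc1, 0.93 for Nfatc2, 0.74 for Nfatc3, 0.97 for Nfat5 and 0.73 for Ppp3r1. The Nfatc1 value includes its higher resting level in T_0 (log2 0.49), and its antigen groups did not differ past the threshold. For PI it was 0.99 for Nfatc1, 1.33 for Nfat5 and 1.38 for Rcan1. Over the other fits and the fits that left out a library these values kept their sign, with Nfatc1 from -0.71 to -0.51 for antigen and from 0.78 to 1.22 for PI, and Rcan1 from 1.16 to 1.56 for PI.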

How the results depend on the processing

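Of 61 member values past the threshold, 46 stayed past it in every alternative fit and every fit that left out a library. Asking also for a fold of at least 2 left 5 members in T_Ag against T_0, 3 in N_PI against N_0, 3 in T_PI against T_0, 0 in T_0 against N_0, 1 in T_Ag against N_Ag, 2 in N_PI against N_Ag, 3 in T_PI against T_Ag and 0 in the antigen interaction. It left 3 higher and 3 lower in N_Ag against N_0, 3 in T_PI against N_PI and 2 in the PI interaction. The shares of all genes under these limits are given above. With erythroid and neutrophil scores, 0 members passed in T_0 against N_0 and 2 in T_Ag against N_Ag. Neutrophil markers were higher in each tolerized group than in its naive counterpart, so these fits cannot tell cell state from neutrophil content. Leaving out 1 library gave 1 to 2 members in T_0 against N_0 (1 without N_0 replicate 3 or T_0 replicate 2). Library totals in place of TMM, chosen after seeing the data, moved the median log2 change of all genes to -0.42 in N_Ag, -0.40 in T_Ag, -0.65 in N_PI and -0.92 in T_PI, and called 8 members in N_PI against N_0. The shares of all genes called with marker scores, with library totals and in the left-out fits are not given. The member counts from those fits therefore say little about the members. Causes were not tested.

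Save for Ppp3r1 in T_PI against T_Ag, the values that changed sign had not passed in the reported fit. With library totals these were Ppp3cb in T_Ag against T_0 (-0.28), Cabin1 in N_PI (-0.41) and T_PI (-0.71) against rest, T_0 against N_0 (0.0042), T_Ag against N_Ag (0.015) and the antigen interaction (0.011), Nfatc1 (0.044) and Ppp3ca (0.18) in T_Ag against N_Ag, Nfat5 (-0.30) and Ppp3r1 (-0.26) in T_PI against T_Ag, and Nfatc3 (-0.19) and Ppp3cb (-0.064) in the PI interaction. With erythroid and neutrophil scores they were Nfatc3 (9.3e-04) and Cabin1 (-0.21) in T_PI against T_0, Nfatc3 (-0.038) and Cabin1 (0.30) in T_0 against N_0, Ppp3ca (0.071), Ppp3cb (-0.036) and Cabin1 (0.14) in T_Ag against N_Ag, and Nfatc2 (0.0066) and Cabin1 (0.057) in T_PI against N_PI. With sex as a term they were Nfatc3 in N_PI against N_0 (0.050) and, in the PI interaction, Nfatc3 (-0.11), Ppp3ca (0.014) and Ppp3r1 (0.0051). Ppp3ca in T_Ag against N_Ag and Nfatc3 in the PI interaction were 0.018 and -0.0068 with the B cell score, and 0.010 and -0.051 with the compared groups alone. Leaving out 1 library gave ranges that cross 0 for Nfatc3 (-0.048 to 0.17) and Rcan1 (-0.080 to 0.21) in T_0 against N_0, Ppp3ca (-0.068 to 0.040) in T_Ag against N_Ag, Ppp3cb (-0.10 to 0.0036) in T_PI against N_PI, Ppp3ca (-0.11 to 0.048) in T_PI against T_Ag, Cabin1 (-0.13 to 0.014) in the antigen interaction, and Nfatc3 (-0.028 to 0.19) and Ppp3r1 (-0.079 to 0.038) in the PI interaction.

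Replicate numbers did not pair the libraries: deviations of same-numbered libraries correlated between -0.20 and 0.11, and 3 of 18 libraries correlated best with their own number. With the replicate block, 99 of 99 member values stayed on their side of the threshold, the 9 in N_Ag against N_0 among them. Depth limits Rcan1, with as few as 51 reads in a resting library.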
